A study of Bos taurus with 12 samples.

Results

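The genes examined were those of the proteasome and of the ubiquitin-conjugating enzymes. They were taken by symbol from the platform annotation: every probe set whose symbol starts with PSMA, PSMB, PSMC, PSMD, PSME or PSMG and a digit, without PSMB8 and PSMB9, or with UBE2, without UBE2C. This gave 75 probe sets of 62 genes, out of 24016 probe sets that are not controls and 9155 genes with a single symbol. Of the 75, 43 probe sets stood for 37 PSM genes and 32 for 25 UBE2 genes. One of the PSM symbols, PSME3IP1, belongs to a protein named for its interaction with the activator PSME3 and not to a subunit, and it is kept apart below. No member was removed by a filter on low values.

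Proteins to be destroyed are tagged with ubiquitin in a relay of enzymes. An E1 enzyme activates ubiquitin, an E2 (ubiquitin-conjugating) enzyme carries it, and an E3 ligase picks the substrate. The 26S proteasome then unfolds and cuts the tagged protein: its 20S core is a barrel of alpha and beta subunits with the cutting sites inside, and its 19S cap holds ATPases that unfold substrates and other subunits that recognise and remove the tag. In the growth plate this system turns over regulators of cartilage differentiation and disposes of misfolded matrix proteins that are returned from the endoplasmic reticulum.

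RNA came from chondrocytes of the growth plate at the distal end of the metacarpus. The cattle were male, of dairy type and not yet 10 months old, and the cells were freed with Collagenase P for 4 hours and parted by density. The lightest fraction was taken as hypertrophic zone (HZ) and the heaviest as reserve zone (RZ), with 6 arrays of each in 6 numbered pairs. No treatment or genetic change is named in the labels, which also do not say whether a pair is 1 animal, so that a p-value here speaks only of how much these pairs vary. A fraction defined by density can hold other cells, and in such bulk RNA fewer cells of a type and less RNA per cell cannot be told apart.

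The zone labels were set against marker genes. These lists were chosen with earlier results of these data known, so their counts are not an independent check of the labels. Of 5 chondrocyte genes 0 differed, and ACAN, COL2A1, COL11A2 and HAPLN1 were bright on every array. COL9A1 had signals of 2058.5 to 3341 in pairs 1 and 2 but only 155 to 465 in pairs 3 to 6. Of the hypertrophic markers 5 of 8 rose in HZ, and 4 of 4 reserve zone markers fell. The hypertrophic markers COL10A1, SPP1 and IBSP were bright in both zones and did not pass. COL10A1 had mean signals of 21619 in HZ and 20146 in RZ, a log2 difference of 0.11 (limma adjusted p = 0.755). Of 7 macrophage markers 5 rose, and the summed signals of the 7 were 1374 to 3039 on HZ arrays and 978 to 2210 on RZ arrays. CD14, the brightest of them on every RZ array, went the other way without passing (-0.81, limma adjusted p = 0.103). Its mean signal was 564 in HZ and 1004 in RZ, so the sums do not describe the 5 that rose. Of 3 osteoclast markers 2 rose. In the other direction, 1 of 6 T and NK cell markers (NKG7), 1 of 6 granulocyte markers (CATHL1) and 1 of 4 endothelial markers (PECAM1) fell. All 6 T and NK cell, all 6 granulocyte and all 4 fibroblast markers were below 0, and summed granulocyte signals were 240 to 2266 on HZ arrays and 428 to 10440 on RZ arrays. Of 4 fibroblast and 4 erythroid markers 0 passed. The ratio of 3′ to 5′ probe signal of GAPDH, a sign of RNA integrity, was highest on HZ-3 and HZ-4, at log2 1.46 and 1.20, against -0.20 to 0.50 on the other arrays. The same ratio of actin was higher in HZ in 6 of 6 pairs, by 0.02 to 1.44, and averaged log2 2.79 ± 0.59 on the HZ arrays against 2.10 ± 0.40 on those of RZ (SD). The part of these cells and of RNA integrity in the differences below was not tested.

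The comparison of HZ with RZ asks which transcripts differ between the fractions taken as enlarging and as resting chondrocytes. Here the transcripts of the proteasome and of the E2 enzymes differed little. Only PSMD11, a scaffold subunit of the 19S cap, and UBE2J1, an E2 of the endoplasmic reticulum membrane, fell in HZ, and UBE2G2, another E2 of endoplasmic reticulum protein disposal, rose. PSMD11 was 1.58-fold lower in HZ, UBE2J1 1.83-fold lower and UBE2G2 1.51-fold higher, on the scale of log2(signal + 16), which understates changes of dim probe sets. These 3 of 75 probe sets passed limma's paired test at an adjusted p under 0.05, while 6.22% of all probe sets did, 3.26% as higher and 2.96% as lower. By genes, 3 of 62 passed, against 7.73% of all named genes, each gene being represented by its brightest probe set on average. Among probe sets with a mean signal of at least 500, where 49 of the 62 genes lie, 11.3% passed over the whole array. Of those 49 genes 1 rose and 1 fell, a share of 4.08%. The members' share is thus below or near each background. At an unadjusted p under 0.05, 12 of 75 member probe sets were found, against 22.2% of all.

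The precision allows a bound on the size of the differences. Member genes had a median standard error of 0.16 on the log2 scale. For 59 of the 62 genes the 95% interval of the difference lay inside a 2-fold change in either direction, as it did for 82.9% of all named genes. The exceptions were PSMD11, UBE2G1 and UBE2J1, whose intervals reached past a 2-fold fall. The median difference was -0.06 over member genes and -0.01 over all named genes.

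**Figure D1:**
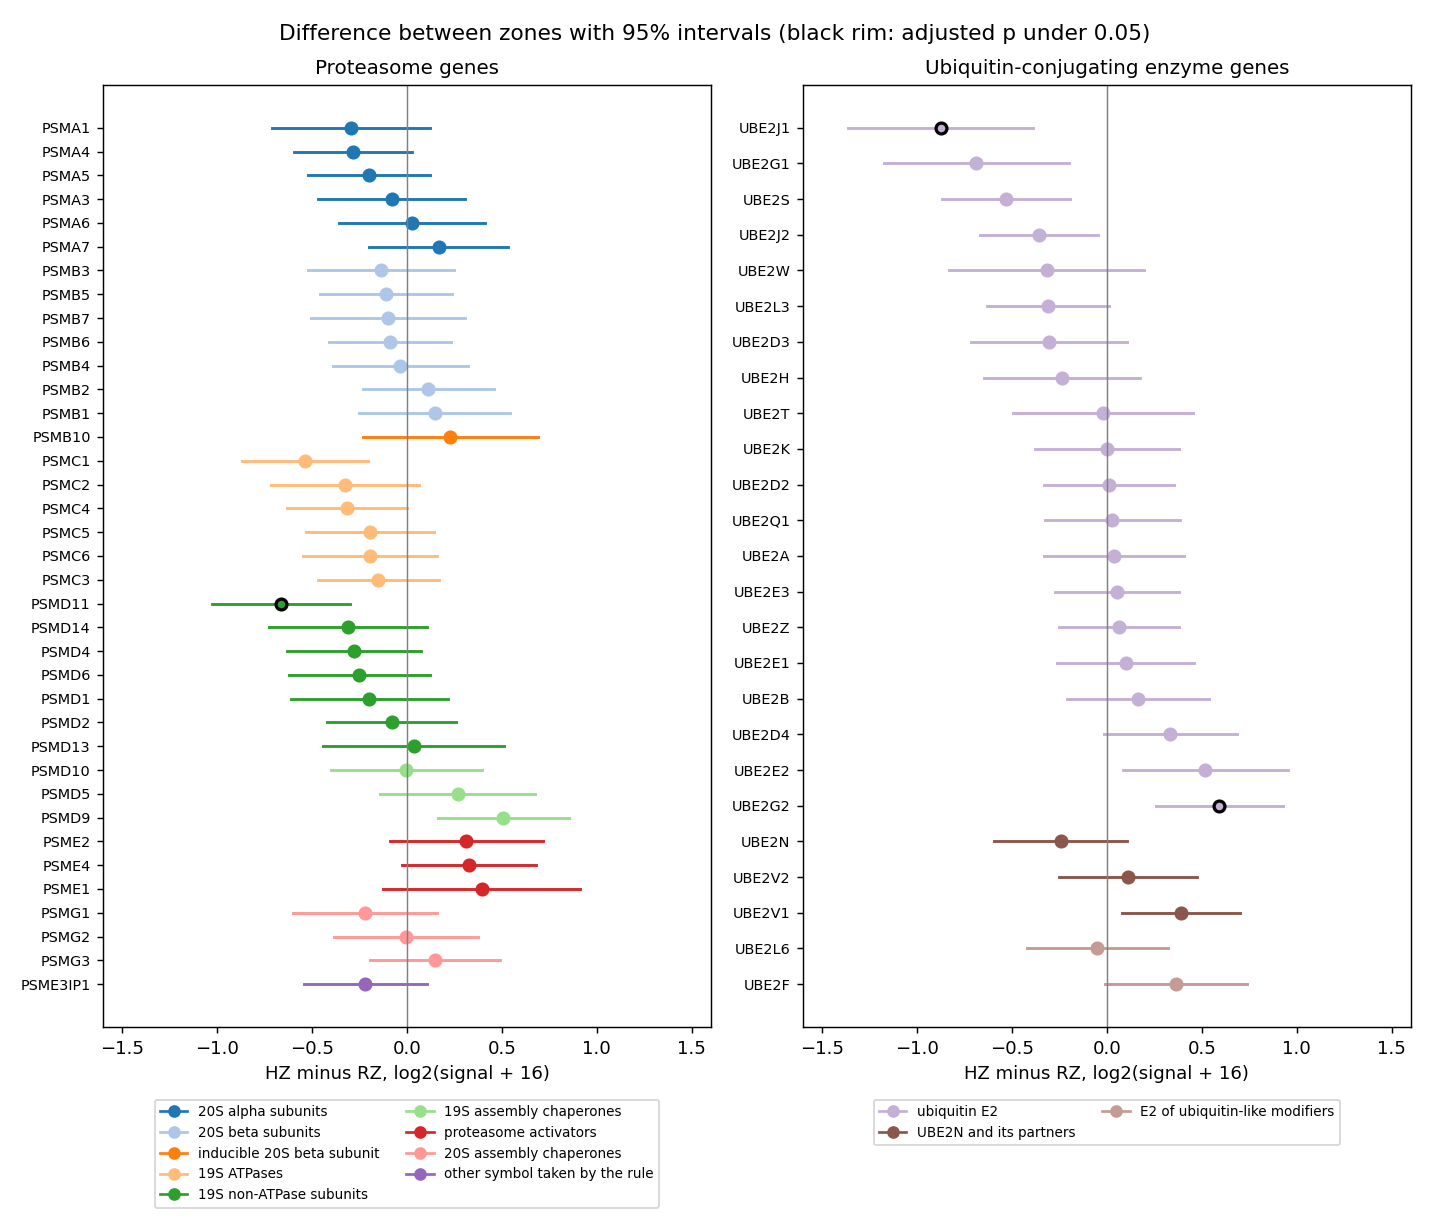
HZ minus RZ difference of log2(signal + 16) for each of the 62 member genes (points, representative probe set) with its 95% interval (lines), grouped by role; a black rim marks an adjusted p under 0.05. The 19S ATPases all lie left of 0, the activators right of 0, and only PSMD11, UBE2J1 and UBE2G2 carry a rim.

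In the 20S core, 0 of 13 alpha and beta genes passed in either direction. The 6 alpha genes measured (PSMA1 and PSMA3 to PSMA7), which form the outer gates of the barrel, ran from -0.30 for PSMA1 to 0.17 for PSMA7, with a median log2 difference of -0.14. The 7 beta genes, PSMB1 to PSMB7, which form the inner rings, ran from -0.14 for PSMB3 to 0.15 for PSMB1, with a median of -0.09. No core gene had an unadjusted p under 0.05 (limma).

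The beta subunits that cut are PSMB5, PSMB6 and PSMB7. PSMB5, the site of chymotrypsin-like activity and the main target of proteasome inhibitors, had HZ signals with a lowest value of 1352, a median of 1820 and a highest of 2233, and RZ signals of 1785, 1926 and 2250. The zones overlapped over most of their range, and the difference was -0.11 ± 0.16 (SE; 95% interval -0.46 to 0.24; limma adjusted p = 0.748). PSMB6, the caspase-like site, had HZ signals of 1561, 1775 and 1990 and RZ signals of 1638, 1805 and 2318 in the same order. Its zones overlapped too, with a difference of -0.09 ± 0.14 (SE). PSMB7, the trypsin-like site, had HZ signals of 1087, 1297 and 2498 and RZ signals of 1173, 1545 and 1667, and gave -0.10 ± 0.18 (SE). The highest of these HZ values was that of HZ-3, far above the other 5 arrays, and the lowest RZ value was that of RZ-5, apart from the rest.

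PSMB10 replaces PSMB7 in the immunoproteasome, the variant that interferon gamma induces. Its signals were 367 to 737 in HZ (median 476) and 325 to 496 in RZ (median 420), overlapping, with a difference of 0.23 ± 0.21 (SE, adjusted p = 0.581). It was higher in HZ in pairs 3, 4 and 5, by 0.43, 0.92 and 0.76, and lower in pairs 1, 2 and 6.

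Genes of the 19S cap were mostly below 0, but only PSMD11 passed. All 6 ATPase genes, PSMC1 to PSMC6, whose products form the ring that unfolds substrates, had differences below 0, from -0.54 for PSMC1 to -0.15 for PSMC3. Their median was -0.26, and 0 of 6 passed. Of the 7 non-ATPase genes of the cap, PSMD11 fell and 6 did not pass; 6 of the 7 were below 0 and their median was -0.25. Over the 13 cap genes the median was -0.25, against -0.09 over the 13 core genes and -0.07 over all probe sets with a mean signal of at least 500. These medians are a description, since subunit genes measured on the same arrays are not independent.

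PSMD11 had HZ signals with a lowest value of 2703, a median of 3147 and a highest of 4244, and RZ signals of 3538, 5399 and 5772. Every pair was lower in HZ, by 0.21 to 1.09, but the zones overlapped because RZ-5, at 3538, stood apart below the other 5 RZ arrays and HZ-3 was the highest HZ array. The mean went from 5180 ± 838 in RZ to 3256 ± 522 in HZ (SD, n = 6), a log2 difference of -0.66 ± 0.16 (SE; limma adjusted p = 0.0428). In the fits with 1 pair left out it passed only without pair 3, with adjusted p up to 0.123 in the other 5. Over pairs 1 and 2 together it was -0.73, and over pairs 3 to 6 it was -0.63.

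PSMC1, the ATPase also called Rpt2, whose tail opens the core's gate, was lower in HZ in 6 of 6 pairs, by 0.22 to 0.89, but did not pass. Its HZ signals were 1039 to 2172 (median 1335) and its RZ signals 1346 to 3652 (median 1966), where pair 6 held the highest array of both zones. The difference was -0.54 ± 0.15 (SE, limma adjusted p = 0.064). PSMD14, which removes the ubiquitin tag from substrates at the cap, gave -0.31 ± 0.19, and PSMD4, which binds it, -0.28 ± 0.16. PSMD2 and PSMD1, the large subunits of the cap's base, gave -0.08 and -0.20. PSMD13 was much dimmer than the other cap genes and gave 0.03, with pairs from -0.73 to 0.79.

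Genes for factors that assemble the proteasome were measured for both parts. Of the cap's chaperones PSMD5, PSMD9 and PSMD10, 0 of 3 passed. PSMD9 was higher in HZ in 5 of 6 pairs, with HZ signals of 608 to 1185 (median 741) and RZ signals of 455 to 660 (median 560), which overlapped through HZ-2, the lowest HZ array. Its difference of 0.51 ± 0.15 (SE) did not pass (limma adjusted p = 0.0845). PSMD5 gave 0.27 and PSMD10 -0.0033. The core's chaperones PSMG1, PSMG2 and PSMG3 gave -0.22, -0.0033 and 0.15, with 0 of 3 passing.

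The 3 activator genes were all above 0 and 0 passed. PSME1 and PSME2 encode the subunits of the PA28 cap, which interferon gamma induces, and PSME4 encodes PA200, a cap found mostly in the nucleus. PSME1 signals were 271 to 542 in HZ (median 477) and 217 to 557 in RZ (median 300.3), and the lowest HZ value, on HZ-6, stood apart from the other 5. PSME1 gave 0.39 ± 0.23 (SE; limma adjusted p = 0.363), with 1.26 in pair 5 and -0.30 in pair 6. PSME2 signals were 184 to 293 in HZ (median 285) and 136 to 274 in RZ (median 216), with a difference of 0.31 ± 0.18. PSME4 was higher in 6 of 6 pairs at 0.33 ± 0.16 (adjusted p = 0.262). PSME3IP1, the symbol that is no subunit, gave -0.22 ± 0.14.

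The inducible genes PSMB10 and PSME1 were higher in HZ in pairs 3, 4 and 5 and lower in the other 3. PSME2 was higher in 5 of 6 pairs, by 0.15 and 0.27 in pairs 1 and 2, and lower in pair 6. PSMB8 and PSMB9, the other inducible core subunits, were dim, with mean HZ signals of 94.8 and 64.8, and gave -0.18 and 0.56, neither passing (adjusted p = 0.667 and 0.366). PSMB9 ran from -0.57 in pair 1 to 2.18 in pair 4. The median difference of 11 interferon-induced genes, of which PSMB8, PSMB9 and ISG15 are 3, was 0.34 and 0.43 in pairs 4 and 5 and -0.12 to -0.58 in the others, and 0 of 11 passed. UBD, a cytokine-induced modifier that sends proteins to the proteasome, was lower in HZ in 6 of 6 pairs and fell by 2.70 (SE 0.40, limma adjusted p = 0.0075), the lowest difference of all probe sets. Its RZ signals were highest on RZ-1 and RZ-2, at 1427 and 721, and the fall was -4.11 over pairs 1 and 2 and -1.99 over pairs 3 to 6 (limma adjusted p = 0.66 for the difference between these). Of the leukocyte markers, all 6 granulocyte genes and CD3D, CD3E and CD3G were also highest on RZ-1 and RZ-2, CATHL1 at 5802 and 3593. Among the RZ arrays GZMB shared this order too, at 90.2 and 67.9, though HZ-2 stood at 82.4. CD8A was highest on RZ-1, at 230, with RZ-6 at 134.3 and RZ-2 at 133.8. NKG7 did not share this order. NKG7 was highest on RZ-6, at 178, against 114 and 79.4 on RZ-1 and RZ-2. The part of leukocytes in the fall of UBD was not tested.

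**Figure D2:**
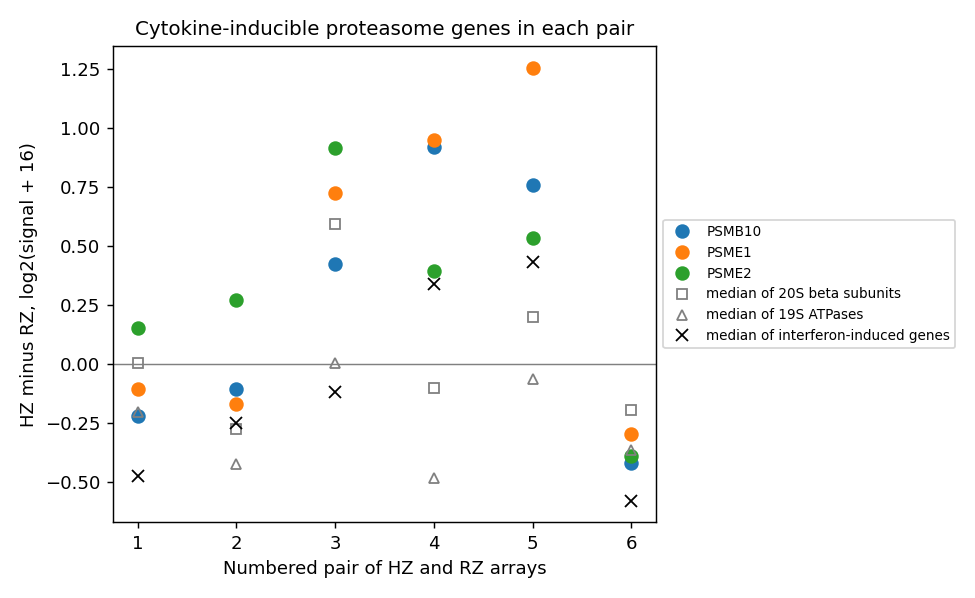
HZ minus RZ difference of log2(signal + 16) in each of the 6 pairs for PSMB10, PSME1 and PSME2 (coloured points), beside the median of the 20S beta genes, of the 19S ATPase genes and of the interferon-induced genes. The coloured points are highest in pairs 3 to 5 and all below 0 in pair 6.

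The differences of core and cap genes varied together from pair to pair. In pair 3, 12 of 13 core genes were higher in HZ, with a median of 0.59, whereas 0 of 13 were higher in pair 2 and in pair 6. Of the 13 cap genes 7 were higher in pair 3, 1 in pair 2 and 0 in pair 4. Over all 62 member genes, 79.0% were higher in HZ in pair 3, 16.1% in pair 2, 24.2% in pair 4 and 21.0% in pair 6. By this share pair 3 was also the highest and pair 2 the lowest over all probe sets with a mean signal of at least 500, of which 73.8% were higher in pair 3 and 23.6%, 30.5% and 38.3% in pairs 2, 4 and 6. By the median difference, pair 4 was the lowest for these bright probe sets, at -0.2523, next to pair 2 at -0.2495. The pattern is thus shared in part with bright probe sets at large. It departs most in pair 6, where the median was -0.23 over member genes and -0.13 over the bright probe sets. HZ-3 and HZ-4 had the highest GAPDH 3′ to 5′ ratios, and the members were mostly higher in pair 3 and mostly lower in pair 4. The actin ratio was higher in HZ by 0.68 in pair 3 and by 1.22 in pair 4. The part of RNA integrity in this pattern was not tested. Without pair 3 the median over member genes was -0.16 and that of the bright probe sets -0.15. Leaving out pairs 3 and 4 together was added once the values were known, and then 0 of 75 member probe sets passed by limma, while 0.579% of all probe sets did, and the medians were -0.16 and -0.12.

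**Figure D3:**
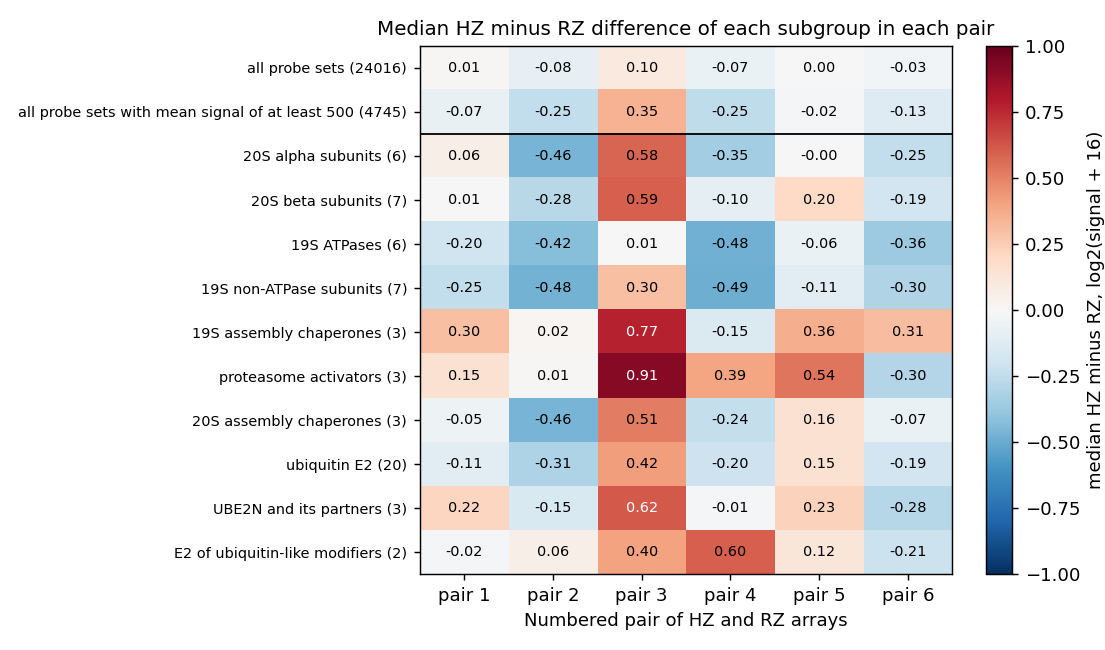
Median HZ minus RZ difference of log2(signal + 16) in each numbered pair (columns) for all probe sets, for those with a mean signal of at least 500 and for each subgroup of members (rows, number of genes in brackets). Pair 3 is the warmest column for most subgroups, and the 19S ATPases stand at 0.01 there and below 0 in the other pairs.

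Among the 25 UBE2 genes, 1 rose, 1 fell and 23 did not pass, and their median log2 difference was 0.01. The share that passed was 8%, against 7.73% of all named genes. The 2 that passed went in opposite directions, and at a share this near the background no common theme is drawn from them. Both serve the endoplasmic reticulum. There, misfolded proteins are drawn out of the membrane, tagged and sent to the proteasome. UBE2G2 acts in this path as a soluble E2, while UBE2J1 and UBE2J2 are anchored in the membrane.

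UBE2G2 had HZ signals with a lowest value of 612, a median of 833 and a highest of 939, and RZ signals of 354, 540 and 655. Every pair was higher in HZ, by 0.13 in pair 6 to 0.93 in pair 3, and the zones overlapped in a narrow range around HZ-5, the lowest HZ array. The mean went from 530 ± 115 in RZ to 798 ± 120 in HZ (SD, n = 6), a difference of 0.59 ± 0.15 (SE; limma adjusted p = 0.048). When each pair was dropped in turn it never passed, in 0 of 6 fits (limma adjusted p = 0.0535 to 0.135). A second, dimmer probe set of the gene, with a mean of 125 in HZ and 136 in RZ, gave -0.13 ± 0.16 (adjusted p = 0.693) and was lower in HZ in 5 of 6 pairs, so that the rise rests on 1 of the gene's 2 probe sets.

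UBE2J1 was dim in both zones. Its HZ signals had a lowest value of 3.78, a median of 33.5 and a highest of 54.2, and its RZ signals were 42.4, 61.2 and 82.7. Every pair was lower in HZ, by 0.21 in pair 4 to 1.88 in pair 6, and the zones overlapped through HZ-4. The mean went from 61.6 ± 15.5 in RZ to 29.0 ± 17.9 in HZ (SD, n = 6), a difference of -0.87 ± 0.22 (SE; limma adjusted p = 0.0455). At this level the size depends on the constant added to the signal: with 1 in place of 16 it was -1.38 and did not pass (adjusted p = 0.137). Of the 6 fits that each dropped a pair, it passed in 1, that without pair 3 (adjusted p up to 0.121 in the other 5). UBE2J2 was bright, with HZ signals of 1147 to 2054 (median 1638) and RZ signals of 1727 to 2359 (median 2154). It was lower in HZ in 6 of 6 pairs, at -0.36 ± 0.14, but did not pass (adjusted p = 0.166).

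Of the other E2 genes, UBE2S and UBE2G1 were lower and UBE2V1 and UBE2E2 higher in most pairs, and 0 of these 4 passed. UBE2S, which lengthens ubiquitin chains for the anaphase-promoting complex in mitosis, had HZ signals of 832 to 1766 (median 1123) and RZ signals of 1368 to 2059 (median 1652). It was lower in HZ in 6 of 6 pairs, by 0.16 to 0.97, with a difference of -0.53 ± 0.15 (SE, limma adjusted p = 0.0706). UBE2T, an E2 of DNA crosslink repair, gave -0.02 ± 0.21.

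UBE2G1, a relative of UBE2G2 that works with cullin ligases, had HZ signals of 722 to 1264 (median 726) and RZ signals of 997 to 2533 (median 1148). It was lower in HZ in 5 of 6 pairs and higher in pair 3, by 0.34. The difference was -0.69 ± 0.22 (SE; limma adjusted p = 0.0965), and without pair 3 it was -0.89 and passed (adjusted p = 0.0292).

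UBE2N builds chains that signal in DNA repair and inflammation rather than destroy, and it needs UBE2V1 or UBE2V2, partners without a catalytic site. UBE2V1 had HZ signals of 372 to 634 (median 540) and RZ signals of 356 to 461 (median 380.5), overlapping through HZ-2. It was higher in 6 of 6 pairs, at 0.39 ± 0.14, and did not pass (limma adjusted p = 0.133). UBE2N gave -0.24 ± 0.16 and UBE2V2 0.11 ± 0.16.

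UBE2E2 was dim, with HZ signals of 35.4 to 74.6 (median 46.6) and RZ signals of 13.8 to 48.2 (median 28.6). Its difference was 0.52 ± 0.19 (SE; limma adjusted p = 0.152). It was -0.06 over pairs 1 and 2 together but 0.81 over pairs 3 to 6. These groups of pairs differ in the step of the deposited values, at 0.0237 to 0.0318 and 0.00884 to 0.0110. In a fit with a term for that split, UBE2E2 was the 1 member of 75 with an unadjusted p under 0.05 (5.03% of all probe sets), and 0 of 75 passed after adjustment (0.00833% of all). The related UBE2E1 and UBE2E3 gave 0.10 and 0.05.

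The general E2 enzymes, which serve many ligases, gave small differences. UBE2D2 gave 0.01, UBE2D3 -0.31 and UBE2D4 0.33, the last being higher in 6 of 6 pairs. UBE2A and UBE2B, which tag histone H2B and the replication clamp PCNA, gave 0.04 and 0.16, UBE2K 0.0031 and UBE2L3, which serves parkin and the linear chain ligase, -0.31. UBE2H, UBE2Q1, UBE2W and UBE2Z ran from -0.32 to 0.06. None of these 11 passed. In all, 11 of the 75 member probe sets kept 1 sign through the 6 pairs, against 14.0% of all probe sets.

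**Figure D4:**
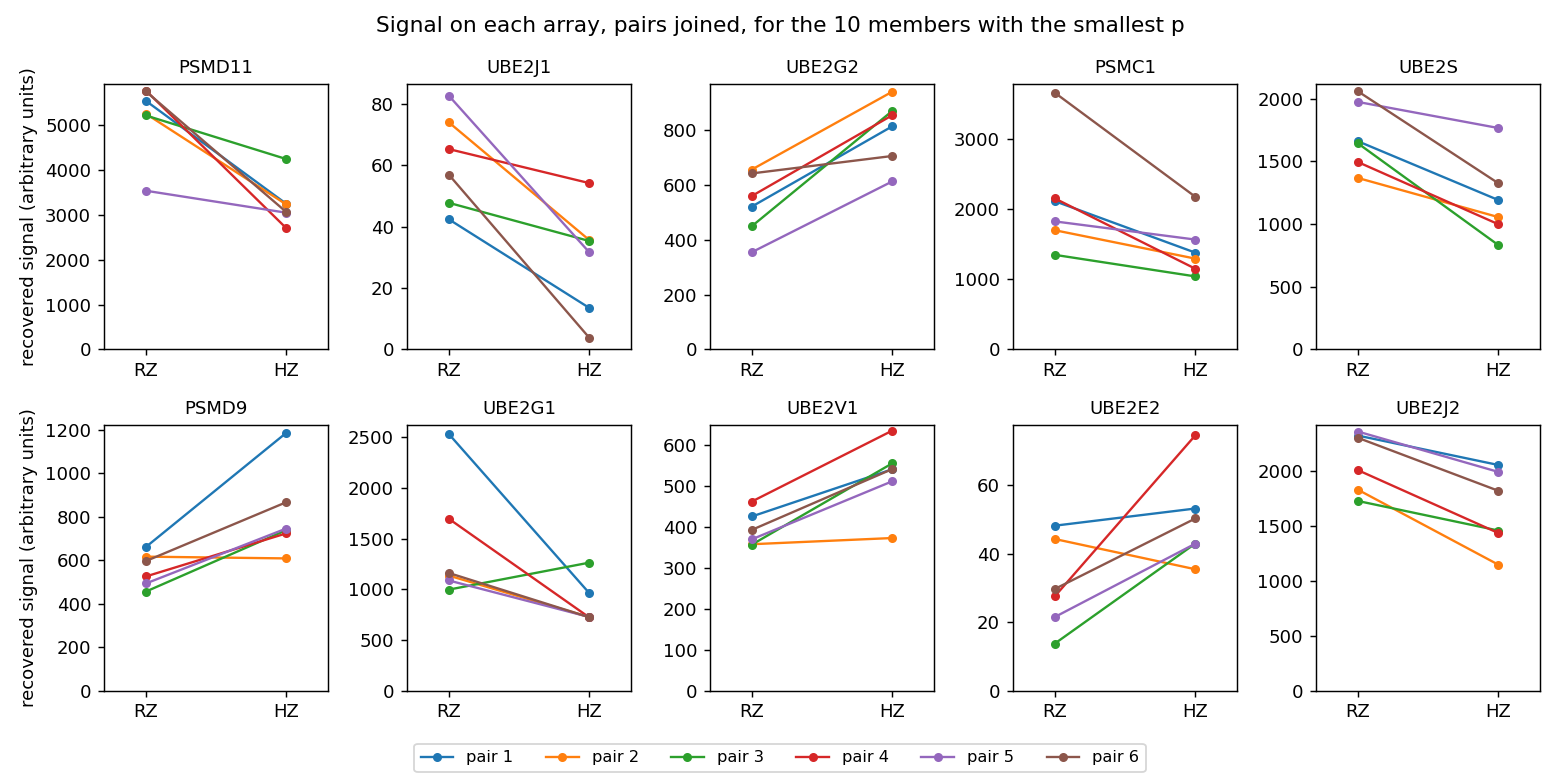
Recovered signal on each RZ and HZ array for the 10 member genes with the smallest p, with arrays of 1 pair joined; each panel has its own axis from 0. PSMD11, UBE2J1, PSMC1, UBE2S and UBE2J2 are lower in HZ in every pair, UBE2G2 and UBE2V1 higher in every pair, and pair 3 runs against the others in UBE2G1.

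Some E2 enzymes carry modifiers other than ubiquitin. UBE2F, which loads NEDD8 onto cullins, gave 0.36 ± 0.17 and was higher in 5 of 6 pairs. UBE2L6 carries the interferon-induced modifier ISG15. Its representative probe set had HZ signals of 129 to 169 (median 144) and RZ signals of 100.2 to 199.8 (median 156), with a difference of -0.05 ± 0.17. Its other probe set had HZ signals of 40.4 to 112 (median 80.1) and RZ signals of 114 to 187 (median 142). There all HZ arrays lay below all RZ arrays, the 1 such case among 75 member probe sets (2.89% of all probe sets), and the difference was -0.82 ± 0.21 (SE; limma adjusted p = 0.0522), just short of the threshold.

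For 13 member genes a second probe set was present. The 2 probe sets had the same sign in 8 genes and opposite signs in 5, namely PSMB2, PSMC5, UBE2B, UBE2G2 and UBE2H. They differed most in UBE2L6, by 0.77, and in UBE2G2, by 0.72, and by 0.34 or less in the other 11. For the cap genes PSMC2, PSMC6, PSMD4 and PSMD6 both probe sets were below 0.

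**Figure D5:**
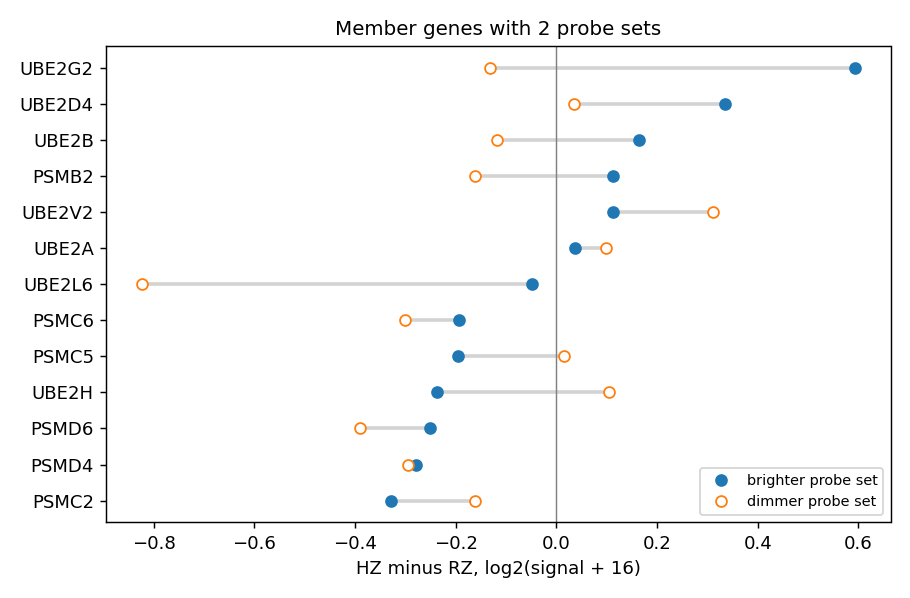
HZ minus RZ difference of log2(signal + 16) of the brighter (filled) and the dimmer (open) probe set for the 13 member genes with 2 of them. The gaps in UBE2G2 and UBE2L6 are the widest, at 0.72 and 0.77.

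Of 51 measured genes on a list of E1 enzymes, modifiers, other proteasome parts, regulators, delivery factors, cullin ligase parts and E3 ligases, 1 rose, 2 fell and 48 did not pass, with a median of -0.06, while 7.73% of all named genes passed. NEDD8, the cullin modifier, rose by 0.58 (limma adjusted p = 0.0467), from a mean signal of 1550 in RZ to 2355 in HZ, but passed in 0 of 6 fits that each dropped a pair (adjusted p = 0.0596 to 0.129). HUWE1, a large E3 ligase, fell by 0.71 (limma adjusted p = 0.0220) and passed, of those 6 fits, only in that without pair 3 (adjusted p up to 0.0738 in the other 5). UBD fell as given above. Of 7 E1 genes 0 passed. NFE2L1, the factor that raises proteasome genes when the proteasome is inhibited, gave -0.37 (limma adjusted p = 0.22). Its dimmer probe set gave -0.53 and did not pass either (adjusted p = 0.151). By their brighter probe sets, its relative NFE2L2 gave -0.13 and the core assembly factor POMP -0.15.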

How the data were processed

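The authors' deposited values are linear ratios, 1 per probe set and array for 12 one-colour arrays. From the values, the divisor was the probe set's median over the arrays for 21901 probe sets and 1 fixed value for 2227 dim ones. How probes were summarised and arrays normalized is not given in the sources used here. Because each array's ratios are whole multiples of a step, the signal was recovered for all 24128 probe sets (112 of them controls), with 0.0575 of a step the largest distance from a whole multiple. The unit assumes a step of 0.1 before scaling, and array medians are then 96.7. No further normalization was made.

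HZ was tested against RZ by limma 3.58.1 (R 4.3.3) on log2(signal + 16), with the pair as a block and Benjamini-Hochberg adjustment over 24016 probe sets. Same-numbered arrays deviated together (correlations 0.124 to 0.447, every pair over 0.1), so the numbers were taken to pair the samples, although in pair 3, the lowest, the closest match was another number. Scripts were tested on simulated data. Members named in detail are those that passed, the 10 with the smallest p, the catalytic subunits PSMB5, PSMB6 and PSMB7, and the inducible PSMB10, PSME1, PSME2 and UBE2L6; other pathway genes are those that passed and PSMB8, PSMB9, NFE2L1, NFE2L2 and POMP. All 75 matched a RefSeq table (ARS-UCD2.0) by Entrez identifier, with unchanged symbols. No sequences or coordinates were used here. Members, lists and tests were chosen with earlier results of these data known.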

Additional observations from a re-analysis of the deposited data

Results flagged for a closer look

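A value apart from the rest was looked for in 48 groups of 6, namely the signals of the 17 named genes (19 probe sets) on the arrays of each zone and the pair medians of the subgroups, on the log2 scale, and 4 were found, where chance gives about 1 in 20. PSMD11 stood at 3538 on RZ-5, below the other RZ arrays. PSMB7 stood at 2498 on HZ-3, above the other HZ arrays, and at 1173 on RZ-5, below the other RZ arrays. PSME1 stood at 271 on HZ-6, below the other HZ arrays.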

How the results depend on the processing

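Every subgroup median stayed within the spread between pairs under all 15 alternatives run for it, a wide tolerance, within which medians near 0 changed sign. The median of the 20S assembly chaperones ran from -0.26 to 0.12, that of the ubiquitin E2 genes from -0.16 to 0.07, of the 20S beta genes from -0.18 to 0.0009, of the E2 genes of ubiquitin-like modifiers from -0.04 to 0.23 and of UBE2N and its partners from -0.0005 to 0.21. Those of the 19S ATPases (-0.31 to -0.20), 19S non-ATPase genes (-0.47 to -0.14), 20S alpha genes (-0.24 to -0.06), 19S assembly chaperones (0.13 to 0.40) and activators (0.17 to 0.45) kept their sign. The counts that passed moved. Against 1 member probe set higher and 2 lower, 0 and 0 passed with 1 added before log2, with the deposited ratio taken as it is, and without pairs 3 and 4. With 64 added, 3 and 5 passed, after quantile normalization 2 were higher, with an intensity trend 2 and 5 passed, and among probe sets with a mean signal of at least 32, 5 were lower. Without the replicate block, 0 were higher and 1 lower, PSMD11. With 1 pair left out, 0 were higher in every fit and 0 to 3 lower. Over all probe sets, against 782 higher and 712 lower, 368 and 215 passed with 1 added, 315 and 163 with the deposited ratio, 505 and 326 without the replicate block, and 91 and 48 without pairs 3 and 4. With 64 added 1120 were lower and with the trend 1075. With 1 pair left out, 334 to 650 were higher and 223 to 895 lower. Signs turned within pairs 1 and 2 for UBE2E2 (-0.06), PSMB10 (-0.16) and PSME1 (-0.14), within pairs 3 to 6 for PSMB7 (0.0009) and without pair 6 for UBE2L6 (-0.19 to 0.013 with 1 pair left out), none of which had passed. The cause of these changes was not tested. Without pairs 3 and 4 and with a pair left out fewer samples were fitted.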

Other observations

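Member genes varied less between arrays of a zone than the array at large. Their median SD of log2(signal + 16) was 0.30 over the HZ arrays and 0.25 over the RZ arrays, against 0.39 and 0.32 over all named genes, and 0.36 and 0.27 over probe sets with a mean signal of at least 500. The 19S ATPase genes had the medians 0.29 and 0.18. A dimmer probe set of NFE2L2 was higher in HZ in 6 of 6 pairs, by 0.28 to 0.64, while the brighter one gave -0.13. The dimmer one had mean signals of 87.1 in HZ and 60.6 in RZ and did not pass (limma adjusted p = 0.0906). Of all probe sets, 14.0% kept 1 sign through the 6 pairs. The NFE2L2 values were noted after they were seen.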
